A study of Homo sapiens with 4 samples.

Results

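The proteasome is the protease complex that destroys ubiquitin-tagged proteins in the cytosol and nucleus, and 37 of its genes were described here, chosen by name from the 23004 gene names measured. They are the 7 subunits of the alpha ring (PSMA1 to PSMA7), the 7 constitutive subunits of the beta ring (PSMB1 to PSMB7), the inducible beta subunit PSMB10, 9 genes of the base and 8 of the lid of the regulatory particle, the assembly chaperone PSMD5 and the 4 activator genes PSME1 to PSME4. The RNA was from BEAS-2B, an established line of immortalized bronchial epithelial cells of human origin, either left untreated (2 libraries) or exposed to 100 µM formaldehyde for 48 h (2 libraries). Dose and time come from the protocol, the compound's name comes from the series title, and all 4 libraries share the same line, which carries no other treatment in the labels. Whether replicates came from separate cultures is not stated, so each p-value reflects only how these libraries vary, possibly for technical reasons. Levels are FPKM, a fragment count divided by transcript length and by library depth, summed over the transcripts of each gene. Levels of different genes can be set side by side only as far as the listed transcript lengths hold.

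The catalytic core of the proteasome is a barrel of stacked rings. The outer alpha rings form the gate, and the inner beta rings hold the protease sites, in PSMB6 (caspase-like), PSMB7 (trypsin-like) and PSMB5 (chymotrypsin-like). The regulatory particle caps the barrel. Its base carries the ATPases that unfold substrates, and its lid carries PSMD14, the enzyme that removes ubiquitin. Interferon is known to replace the catalytic subunits by PSMB9, PSMB10 and PSMB8 and to raise PSME1 and PSME2, whose products form the PA28 activator that opens the gate without ubiquitin. When proteasomes are inhibited, the transcription factor NRF1 (gene NFE2L1) is known to raise the constitutive subunits together through antioxidant response elements in their promoters.

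The depth recovered from the deposited bounds was 16.67 and 26.24 (in units of 1e+06 fragments) in untreated replicates 1 and 2, and 14.12 and 22.04 in formaldehyde replicates 1 and 2. Members with 1 listed transcript, apart from PSMB7 in untreated replicate 1, held between 328 fragments (PSMB10 in formaldehyde replicate 1) and 13678 (PSMD2 in formaldehyde replicate 2), which gives a 95% counting error of 1.71% to 11.04%. In that library PSMB7 had a wider deposited bound, 29.98% either side of 242 FPKM. The keratins KRT8 and KRT18 of simple epithelium stood at 206 FPKM or more in every library, and the 7 epithelial markers summed to 709 and 641 FPKM in untreated cells and 1339 and 1156 FPKM after formaldehyde, with KRT5 listed at 0 in all 4 and CDH1, the epithelial cadherin, at 0.631 FPKM or less. The 3 basal airway markers summed to 26.7 and 183 against 62.0 and 49.1 FPKM, nearly all of it KRT17, with TP63 listed at 0 in all 4. Of 7 mesenchymal markers, which summed to 1083 and 1241 against 1188 and 1063 FPKM, VIM stood at 782 and 642 against 1043 and 786 FPKM, COL1A1 at 279 and 568 against 137 and 254 FPKM and PDGFRB at 21.8 and 29.97 against 7.40 and 22.2 FPKM, so that they did not move one way. The 8 leukocyte markers summed to 18.4 and 31.3 FPKM in untreated cells and 51.7 and 32.6 FPKM after formaldehyde, mostly CD68, with CD3E listed at 0 in all 4 libraries and PTPRC at 0.0232 FPKM or less.

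No proteasome gene passed the test between formaldehyde and untreated cells. All 37 had a mean of at least 10 FPKM, so every member was tested, and 0 passed in limma (Benjamini-Hochberg adjusted p = 0.9999 for the smallest) against 0.153% of the 12407 genes tested. At an unadjusted p under 0.05 the count was also 0 of 37, against 2.76% of all genes. In simulated data of this design the test recovered none of the smallest changes set, which were larger than the fold of any member, so missing the threshold does not show that levels did not differ. The count over all genes moved with the filter, from 19 genes to 0 with no filter on low values and to 1 with genes of at least 300 nt. The median log2 fold change of the 37 was 0.22, beside 0.03 over all genes, and ran from 0.01 (PSMA3) to 0.60 (PSME2). Every member had a value above 0 on this scale, beside 55.1% of all genes. Scaling moved that count, to 35 of 37 with median ratios, 33 with the FPKM sum and 32 with quantiles. On the ratio of mean FPKM, 34 of 37 were above 1, with PSMA2, PSMA3 and PSMD1 just below it. In 7 members (PSMB2, PSMB7, PSMC4, PSMC5, PSMD3, PSMD12 and PSME2) both formaldehyde libraries lay above both untreated ones (called separated groups from here on), a share of the list close to the 16.2% of all genes that did so, and in 0 they lay below, beside 10.7%.

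The direction of the median over the members depended on untreated replicate 2. Untreated replicate 2 was the lowest of the 4 in 37 of 37 members, beside 40.8% of all genes. Summed over the 37 genes, the level was 4717 FPKM in untreated replicate 1, 3258 in untreated replicate 2, 4860 in formaldehyde replicate 1 and 4365 in formaldehyde replicate 2. Thus in this sum 3 libraries lay close together and untreated replicate 2 lay apart below them. In the alpha ring the sums were 957, 544, 923 and 721 FPKM in that order, with formaldehyde replicate 2 in between. As a share of all FPKM of named genes, the sum was 0.921%, 0.659%, 0.901% and 0.848% in the same order. Without untreated replicate 2 the median log2 fold change of the members was -0.09, with 16 above 0 and 21 below. Without untreated replicate 1 it was 0.52, with 37 above 0. Formaldehyde replicate 2 also lay below formaldehyde replicate 1 in 27 of 37 members, so these fits do not balance the replicate numbers. A single low library and a shift shared by the libraries numbered 2 cannot be told apart here.

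**Figure D1:**
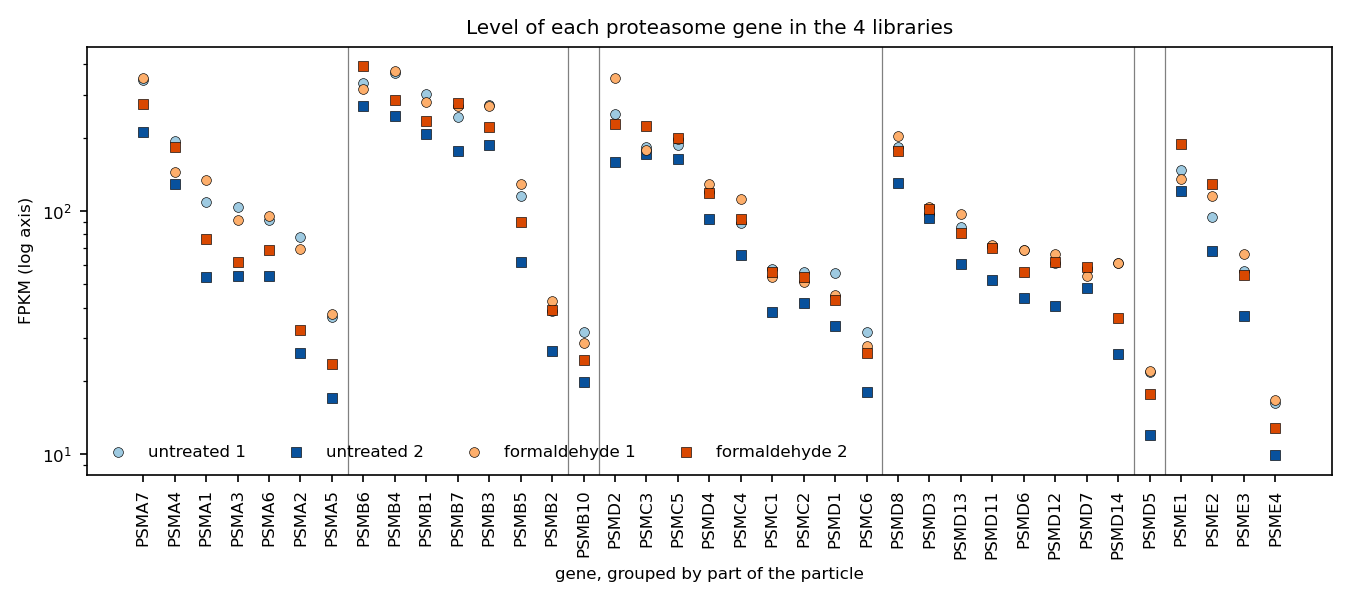
FPKM (log axis) of each proteasome gene in the 4 libraries, grouped by part of the particle from left to right: alpha ring, beta ring, PSMB10, base, lid, PSMD5 and activators, each ordered by mean level. The dark blue squares, untreated replicate 2, are the lowest point for 37 of 37 genes, and the parts span from PSMB6 at the top to PSME4 at the bottom.

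The same split appeared when formaldehyde was set against untreated within each replicate number. The labels do not say that a number marks a shared culture or day. Between the libraries numbered 1, the median log2 difference of the members was 0.02, with 23 of 37 above 0, beside 45.9% of all genes. Between the libraries numbered 2 it was 0.42, with 37 of 37 above 0, beside 62.3% of all genes. As ratios of FPKM, the members ran from 0.748 (PSMA4) to 1.40 (PSMD2) in the first pair, with a median of 1.01, and from 1.09 (PSMD3) to 1.89 (PSME2) in the second, with a median of 1.35. PSMD2, the large scaffold subunit of the base, had nearly equal ratios in both pairs, 1.40 and 1.43.

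**Figure D2:**
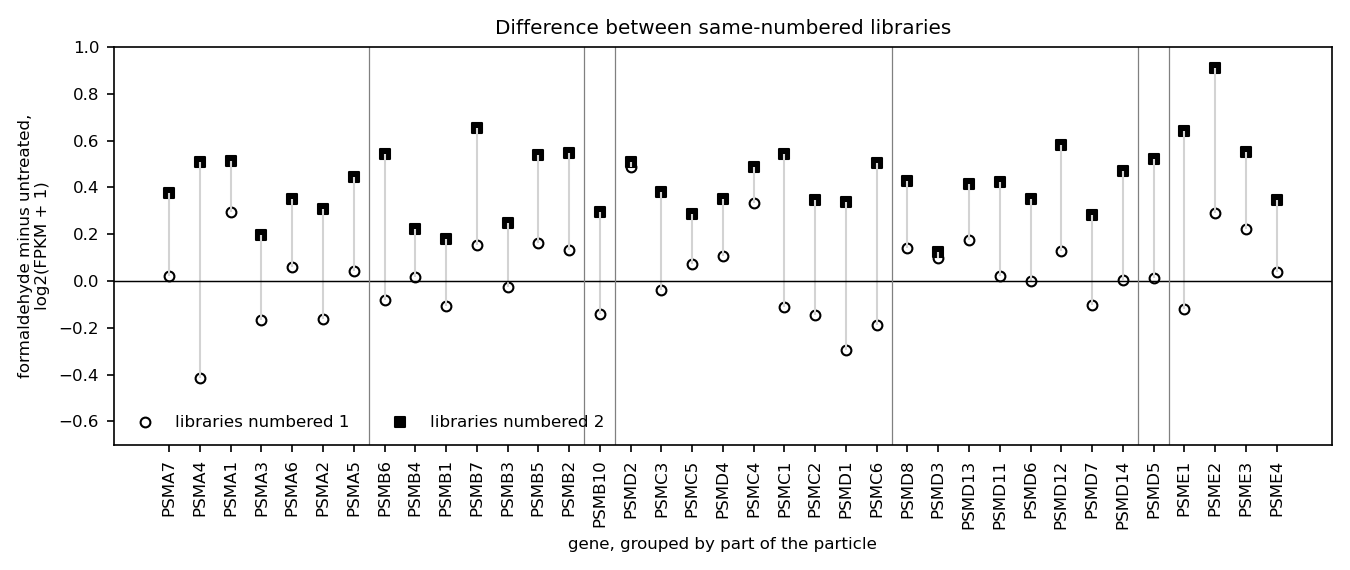
Difference in log2(FPKM + 1) between formaldehyde and untreated for each proteasome gene, in the libraries numbered 1 (open circles) and numbered 2 (filled squares), joined by a line for each gene. The circles scatter around 0 with a median of 0.02, and all 37 squares lie above 0 with a median of 0.42.

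The alpha ring had the widest gap between untreated libraries of the parts, a median of -0.93 (replicate 2 minus replicate 1, log2 scale) against -0.58 over all members. Over its 7 genes the median log2 fold change was 0.20, and 0 separated the groups, beside 16.2% of all genes. PSMA7, the most abundant, stood at 345 and 211 FPKM in untreated cells and 350 and 274 FPKM after formaldehyde (replicates 1 and 2 throughout). PSMA1 stood at 109 and 53.5 FPKM in untreated cells and 134 and 76.9 FPKM after formaldehyde, a log2 difference of 0.40 with an SE of 0.45 (adjusted p of 0.9999 in limma). In both genes replicate 2 lay below replicate 1 in both groups, so that the groups overlapped. PSMA6 did likewise, at 91.2 and 53.9 against 95.2 and 68.9 FPKM, and so did PSMA5, the least abundant, at 36.7 and 17.1 against 37.8 and 23.6 FPKM. PSMA2, named after its values were seen, had the largest gap between untreated libraries of any member, 78.0 against 26.03 FPKM, a ratio of 2.997, and stood at 69.6 and 32.5 FPKM with formaldehyde. Although each alpha subunit occurs once per ring in the assembled particle, the most abundant messenger exceeded the least abundant by 9.26 to 12.3 times within a library. The least abundant, PSMA5, has the longest listed transcript of the ring, 3826 nt. The part of listed length in this ratio was not tested. PSMA7 lay above PSMA4 with separate ranges over the 4 libraries, while PSMA1, PSMA3 and PSMA6 could not be ordered beyond their spread. PSMA3 in turn lay above PSMA6 in 1 of 4 libraries.

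The beta ring was the most abundant part. Its summed level was 1676 and 1170 FPKM in untreated cells and 1682 and 1539 FPKM after formaldehyde, and its median log2 fold change was 0.23. PSMB6, the caspase-like subunit and the most abundant member of all by mean level, stood at 336 and 269 FPKM in untreated cells and 318 and 392 FPKM after formaldehyde. The highest and the lowest of those values are the replicates numbered 2, and the groups overlapped. PSMB7, the trypsin-like subunit, stood at 242 and 176 FPKM in untreated cells and 270 and 277 FPKM after formaldehyde, a log2 difference of 0.40 with an SE of 0.26 (adjusted p of 0.9999 in limma). Its formaldehyde libraries nearly coincided above both untreated ones. PSMB2, the least abundant of the ring and a structural subunit, also separated the groups, narrowly, at 38.9 and 26.5 against 42.7 and 39.2 FPKM. PSMB5, the chymotrypsin-like subunit and the main target of proteasome inhibitors, overlapped between the groups, at 115 and 61.9 against 129 and 90.3 FPKM. PSMB6, PSMB4, PSMB1, PSMB7 and PSMB3 formed a top group whose neighbours overlapped in range, with PSMB5 and then PSMB2 below them by separate ranges. PSMB2 has the longest listed transcript of the ring, 4743 nt, and the part of listed length in this order was not tested.

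In the base of the regulatory particle, with 9 genes, a median of 0.18 was found on the log2 scale. The ATPases PSMC4 and PSMC5, 2 of the 9, separated the groups, beside 16.2% of all genes. PSMC4 stood at 89.0 and 65.9 FPKM in untreated cells and 112 and 92.8 FPKM after formaldehyde, a log2 difference of 0.41 with an SE of 0.25 (adjusted p of 0.9999 in limma). PSMD2 stood at 251 and 159 FPKM in untreated cells and 352 and 227 FPKM after formaldehyde, the largest fold of the base, 1.41 as a ratio of means. Its formaldehyde replicate 2 lay below untreated replicate 1, so the groups overlapped. PSMD4, a ubiquitin receptor, stood at 119 and 92.4 FPKM in untreated cells and 128 and 118 FPKM after formaldehyde, and also overlapped. PSMC6, the least abundant ATPase, stood at 31.8 and 18.0 against 27.8 and 25.97 FPKM. The 6 ATPases join in 1 ring, yet their messengers differed by 5.89 to 9.49 times within a library, with PSMC3 and PSMC5 level with each other (each above the other in 2 of 4 libraries) and separate from the rest.

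Over the 8 lid genes the median log2 fold change was 0.23. PSMD3 and PSMD12, 2 of the 8, separated the groups, beside 16.2% of all genes. PSMD12, a scaffold subunit, stood at 60.8 and 40.8 FPKM in untreated cells and 66.6 and 61.4 FPKM after formaldehyde, a log2 difference of 0.35 with an SE of 0.26 (adjusted p of 0.9999 in limma). PSMD13 stood at 85.9 and 60.5 against 97.1 and 81.0 FPKM, and PSMD8, the most abundant of the lid, at 183 and 131 against 202 and 176 FPKM. Both of these overlapped, since formaldehyde replicate 2 lay just below untreated replicate 1. PSMD14, the deubiquitinase and the least abundant of the lid, was low in replicate 2 of both groups, at 60.7 and 25.8 FPKM in untreated cells and 60.8 and 36.2 FPKM after formaldehyde. PSMD3, named after its values were seen, was the steadiest member, at 96.9 and 93.0 FPKM in untreated cells and 104 and 101 FPKM after formaldehyde. Its range over the leave-one-out fits was the narrowest in the list, 0.08 to 0.14 on the log2 scale. PSMD5, which helps to assemble the base and leaves the finished particle, overlapped between the groups at 21.9 and 12.0 against 22.1 and 17.7 FPKM.

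Of the 3 genes that interferon is known to induce, 1 separated the groups (beside 16.2% of all genes) and 0 passed the test. The difference among the 3 was not tested. PSME2, which encodes the beta subunit of PA28 (chromosome 14, hg19, 24612574 to 24615855, minus strand), stood at 94.1 and 68.3 FPKM in untreated cells and 115 and 129 FPKM after formaldehyde. Both formaldehyde libraries lay above both untreated ones, and replicate 2 was the higher with formaldehyde and the lower without it. Its mean was 81.2 ± 18.2 FPKM untreated and 122 ± 9.94 FPKM with formaldehyde (SD, n = 2 each), a log2 fold change of 0.60 ± 0.25, the largest of the 37, with an unadjusted p of 0.0611 and an adjusted p of 0.9999 in limma. It was the member with the smallest p, and its value stayed between 0.37 and 0.83 when any 1 library was left out. PSME1, the alpha subunit of PA28, lies beside PSME2 on the same chromosome (24605378 to 24608176, plus strand) and stood at 147 and 120 FPKM in untreated cells and 135 and 188 FPKM after formaldehyde, so that the groups overlapped. PSMB10, the inducible trypsin-like subunit (chromosome 16, 67968407 to 67970780, minus strand), stood at 31.8 and 19.7 FPKM in untreated cells and 28.7 and 24.4 FPKM after formaldehyde, a log2 difference of 0.08 with an SE of 0.29 (adjusted p of 0.9999 in limma). Its formaldehyde libraries lay between the untreated ones. In the same libraries 14 of 15 interferon-stimulated genes were tested, 14 separated the groups upward, and their median log2 fold change was 1.65, with IFI27 alone past the threshold (limma adjusted p = 0.0212), a call lost with no filter on low values and with any 1 of the 4 libraries left out. The summed leukocyte markers given above were also higher with formaldehyde, and their part in these values was not tested.

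Ratios within a library, which do not move with the level of the whole list, also differed between these genes. PSMB10 over PSMB7, the pair that exchange places in the trypsin-like site, was 0.132 and 0.112 untreated and 0.107 and 0.0883 with formaldehyde. PSME2 over PSME1 was 0.640 and 0.568 untreated and 0.854 and 0.687 with formaldehyde. Neither ratio overlapped between the groups, but no order is read from either. The nearest values of the first, 0.112 and 0.107, lie closer than the counting error of PSMB10 in those libraries (9.77% and 11.04%). The PSMB7 level in untreated replicate 1 also carries the wide bound given above. The nearest values of the second, 0.640 and 0.687, are close as well. They rest on 988 and 1798 fragments of PSME2, and the counting error of PSME1, with 2 listed transcripts, was not recovered. With 2 libraries against 2, an exact permutation test cannot give a p under 0.333, so neither was tested. The other inducible subunits, outside the list of 37, were less clear. PSMB8 stood at 65.4 and 46.0 FPKM in untreated cells and 87.5 and 75.0 FPKM after formaldehyde, a log2 difference of 0.55 with an SE of 0.26 (adjusted p of 0.9999 in limma), with separate groups, and its ratio to PSMB5 was 0.569 and 0.744 against 0.679 and 0.831. PSMB9, named after its values were seen, stood at 66.2 and 73.2 against 66.7 and 109 FPKM, and its ratio to PSMB6 was 0.197 and 0.273 against 0.210 and 0.279. Both ratios overlapped and were higher in replicate 2 of both groups. The ratios PSMB10 over PSMB7 and PSME2 over PSME1 also moved with the replicate number, lower in replicate 2 of both groups. PSMB8 and PSMB9 are each listed on 8 chromosome names, since alternative haplotypes of the region are included, and their values are sums over these. In bulk RNA a smaller number of cells that express a gene and less RNA in each cell cannot be told apart.

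**Figure D3:**
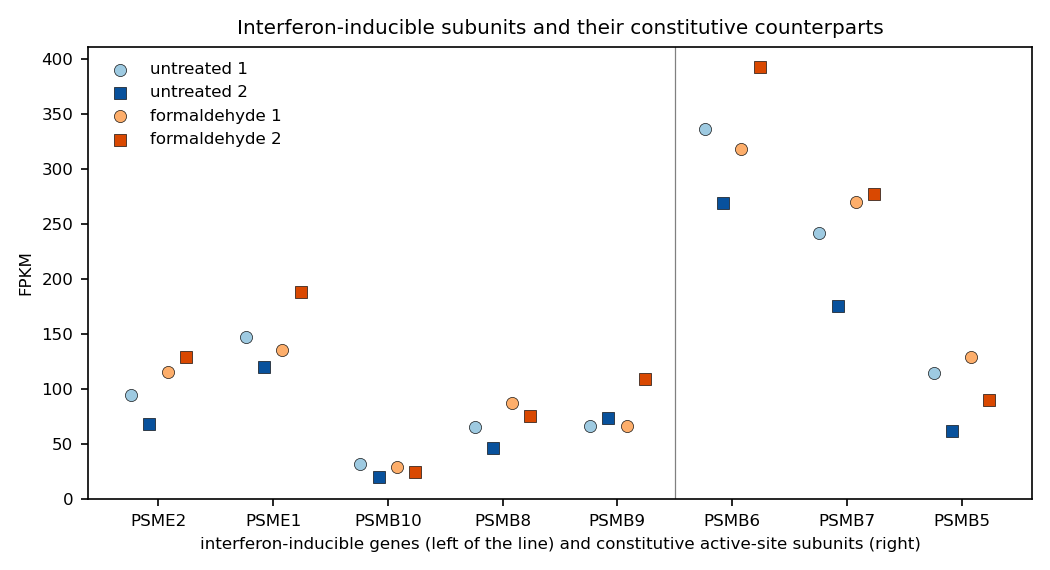
FPKM (linear axis from 0) in each of the 4 libraries for the interferon-inducible genes PSME2, PSME1, PSMB10, PSMB8 and PSMB9, left of the line, and the constitutive active-site subunits PSMB6, PSMB7 and PSMB5, right of it. PSME2, PSMB8 and PSMB7 have both formaldehyde points above both untreated points, and in the other 5 genes the groups overlap.

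The promoters of these genes carry the letters of interferon elements, shown here because 1 of the 3 inducible members separated the groups and the other 2 did not. Promoter windows of 300 bases (250 before to 50 after a start site, RefSeq, GRCh38.p14) were found for 32 of the 37 members, as 38 windows. The core of the interferon-stimulated response element, GAAA and again GAAA with 2 bases of any kind between, on either strand, was in 5 of the 38 windows, of PSMA4, PSMB4, PSMB10, PSME1 and PSME2, or 13.2%, beside 3.57% of all 35116 windows. Of these genes, PSMB10, PSME1 and PSME2 are the 3 that were listed as known interferon-inducible genes. The share over the list therefore does not describe the constitutive subunits, of which PSMA4 and PSMB4 matched. The gamma-activated site, TTCNNNGAA, was in 6 windows or 15.8%, beside 7.66% of all. In PSME2 (chr14:24146611-24146690, minus strand) and PSMB10 (chr16:67936851-67936930, minus strand) the match, in capitals, lies within the 80 bases before the start site, from -28 to -19 and from -21 to -12. In PSMB4 (chr1:151399473-151399552, plus strand) it lies from -68 to -59. In PSME1 (chr14:24136189-24136218, plus strand) it lies on the opposite strand just after the start, from 6 to 15. The matches are descriptions of letters and not evidence of binding.
PSME2: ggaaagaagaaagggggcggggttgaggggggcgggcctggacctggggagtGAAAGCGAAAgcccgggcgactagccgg
PSMB10: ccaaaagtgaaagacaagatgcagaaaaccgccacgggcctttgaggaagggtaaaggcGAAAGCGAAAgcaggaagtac
PSMB4: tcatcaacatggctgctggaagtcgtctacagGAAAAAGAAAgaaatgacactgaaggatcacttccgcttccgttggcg
PSME1: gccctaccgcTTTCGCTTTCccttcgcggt

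PSME2 and PSMB10 hold the same 10 letters, GAAAGCGAAA, at nearly the same distance from the start, and PSME1 holds their reverse complement. Their differences between formaldehyde and untreated were 0.60, 0.08 and 0.26 on the log2 scale. PSMB4, a constitutive structural subunit of the core, stood at 370 and 244 FPKM in untreated cells and 375 and 285 FPKM after formaldehyde, so that its groups overlapped.

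Antioxidant response elements, through which NRF1 is known to act on the constitutive subunits, were also searched. TGACNNNGC was in 11 of 38 member windows (28.9%, beside 13.3% of all windows) and TGAGNNNGC in 12 (31.6%, beside 18.3%), and either was in 19 of the 38, beside 29.1% of all windows, belonging to 18 genes. Matches of 2 different motifs overlapped in 1 place, in PSMB5. An example from each part of the particle is given with 10 bases on either side and the match in capitals, from PSMA4 (chr15:78540650-78540678, plus strand), PSMB3 (chr17:38752627-38752655, plus strand), PSMC5 (chr17:63827654-63827682, plus strand, match on the opposite strand) and PSMD12 (chr17:67366724-67366752, minus strand).
PSMA4: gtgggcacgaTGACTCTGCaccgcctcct
PSMB3: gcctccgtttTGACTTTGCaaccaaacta
PSMC5: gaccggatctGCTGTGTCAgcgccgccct
PSMD12: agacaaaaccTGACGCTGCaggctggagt

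Of these 4 genes, PSMC5 and PSMD12 separated the groups and PSMA4 and PSMB3 did not, beside 16.2% of all genes. The 4 are examples from the 18 genes with a match, so no rate is read from them. PSMC5, an ATPase, stood at 187 and 163 FPKM in untreated cells and 197 and 199 FPKM after formaldehyde, and PSMB3, a structural subunit of the beta ring, at 273 and 186 against 268 and 221 FPKM. The genes of NRF1 and its processing, 9 in all, gave a median of 0.11 on the log2 scale, 6 above 0, 3 below and 0 past the threshold in limma (1 at an unadjusted p under 0.05). NFE2L1 itself, named after its values were seen, stood at 97.1 and 164 FPKM in untreated cells and 89.6 and 149 FPKM after formaldehyde, higher in replicate 2 of both groups, the opposite order to most subunits. MAFF, a small partner of NRF1, stood at 14.2 and 25.9 FPKM in untreated cells and 36.7 and 37.6 FPKM after formaldehyde, a log2 difference of 0.91 with an SE of 0.32 (adjusted p of 0.9999 in limma). MAFG, another small Maf partner, stood at 14.7 and 18.1 against 21.5 and 18.6 FPKM. NGLY1, the enzyme that removes sugar chains from NRF1, stood at 15.6 and 10.2 against 15.1 and 16.1 FPKM. Of the 9 genes, 2 (MAFF and MAFG) separated the groups upward and 0 downward, beside 16.2% and 10.7% of all genes. In a list this small that is not read as a result. NGLY1 overlapped.

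The remaining activators also bind the ends of the core. PSME3, a nuclear relative of PSME1 and PSME2, stood at 56.8 and 36.9 FPKM in untreated cells and 66.4 and 54.5 FPKM after formaldehyde, a log2 difference of 0.39 with an SE of 0.28 (adjusted p of 0.9999 in limma). PSME4, the large activator PA200 and the least abundant member of all, stood at 16.2 and 9.90 against 16.7 and 12.9 FPKM. Both overlapped between the groups. The 4 activator genes were ordered PSME1, PSME2, PSME3 and PSME4 in all 4 libraries.

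The 2 untreated libraries differed by more than the log2 fold change in 34 of the 37 members, beside 70% of all genes. Untreated replicate 1 lay above replicate 2 by 1.04 (PSMD3) to 2.997 times (PSMA2), with a median of 1.501. Formaldehyde replicate 1 lay above replicate 2 in 27 of 37 members, by up to 2.14 times (PSMA2), and below it in 10, down to 0.717 times (PSME1). The 2 gaps, which share no library, went together across members, with a Pearson's r of 0.82 (Spearman 0.79) over the 37 genes, beside 0.50 (0.56) over 12015 genes of at least 300 nt. These genes are measured in the same 4 libraries and are not independent replicates. PSMA2, PSMD14, PSMA1 and PSMA5 had the widest gaps in both groups, and PSMD3, PSMC3 and PSMC5 were among the narrowest in the untreated group.

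**Figure D4:**
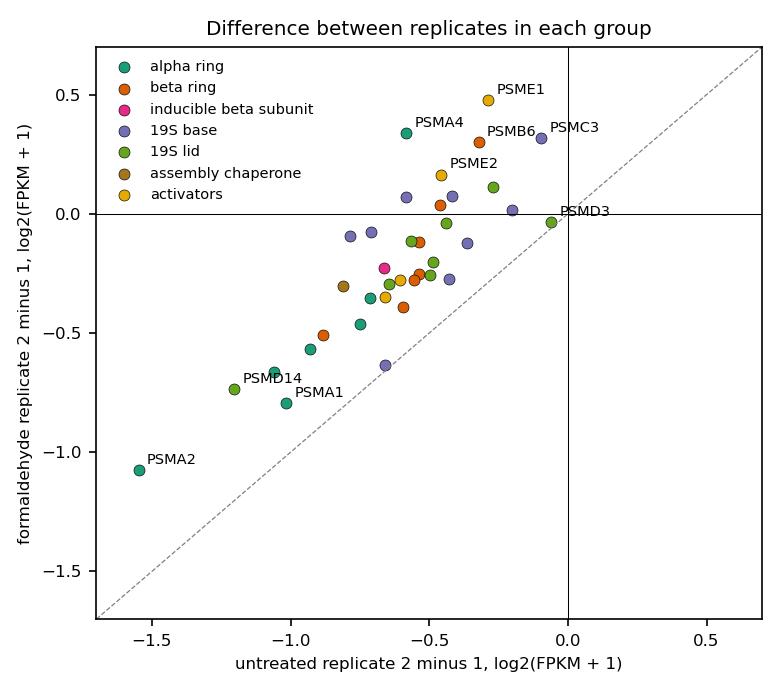
For each proteasome gene, the difference between replicate 2 and replicate 1 in log2(FPKM + 1) among untreated libraries (horizontal axis) and among formaldehyde libraries (vertical axis), coloured by part of the particle, with a dashed line of equality. All 37 points lie left of 0, they run along a rising band (r of 0.82), and all 37 lie above the line.

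Base composition moved with these gaps. The GC content of the most abundant transcript, known for 36 of 37 members, ran from 37.2% (PSMA5) to 60.1% (PSMB10), with a median of 49.3%, beside 49.7% over all genes. Members of low GC lay further below in untreated replicate 2, with an r of 0.55 between GC and the untreated gap over 36 genes, beside 0.53 over 11508 genes of at least 300 nt. For the formaldehyde gap it was 0.34, beside 0.24. Between GC and the log2 fold change it was 0.25 over the members, beside 0.03. Of 5 nuclear or small RNAs listed, 2 were highest in untreated replicate 2, with MALAT1 at 92.5 FPKM against 27.2 in untreated replicate 1 and 38.7 and 38.5 with formaldehyde, and NEAT1 at 596 FPKM against 218, 485 and 335. The other 3 were not highest there, with RMRP at 14.5 FPKM against 26.2, 56.9 and 4.33, RPPH1 at 6.83 FPKM against 8.18, 11.7 and 0.976, and KCNQ1OT1 at 0.145 FPKM or less in every library. Over the 5, the sum, most of it NEAT1, was 280 and 710 FPKM in untreated cells and 592 and 379 FPKM after formaldehyde. KRT17 was likewise highest in untreated replicate 2, at 178 FPKM against 26.4, 61.2 and 48.0. The part of base composition, MALAT1, NEAT1 and KRT17 in the result was not tested.

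**Figure D5:**
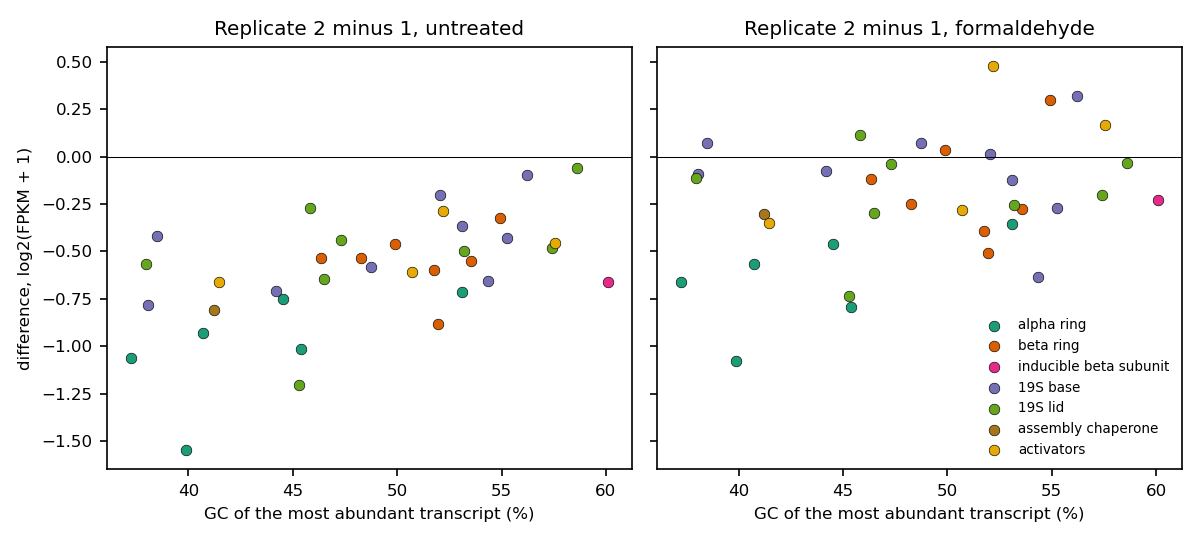
GC content (%) of the most abundant transcript of 36 proteasome genes against the difference between replicate 2 and replicate 1 in log2(FPKM + 1), for untreated libraries (left) and formaldehyde libraries (right), coloured by part of the particle. Points of low GC lie lower in the left panel (r of 0.55), and the right panel shows a looser relation (r of 0.34).

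In some members the assignment of reads to transcripts followed the replicate number. Of 14 members with several listed transcripts, the share of the most abundant one moved by less than 10 percentage points over the libraries in 8. The widest shifts were in PSMA4, PSMA3 and PSMD12. In PSMA4 the share was 97.4% and 42.2% untreated and 92.6% and 26.3% with formaldehyde. In PSMA3 it was 100.0% and 50.8% against 100.0% and 48.3%, and in PSMD12 34.4% and 62.5% against 34.5% and 74.1%. Each of these separated replicate 1 from replicate 2 and not formaldehyde from untreated. PSMC2 did the same, at 80.1% and 65.4% against 86.2% and 64.1%, as did PSMC4, at 96.8% and 99.97% against 88.4% and 100.0%. PSMD1 did not, at 73.0% and 99.99% against 89.7% and 81.4%. The gene sum of PSMA4 was 193 and 129 FPKM in untreated cells and 145 and 183 FPKM after formaldehyde, whereas its leading transcript alone gave a log2 fold change of -0.33, against 0.05 for the sum. In 7 members the span of another gene on the opposite strand, introns included, overlaps. The most abundant is FTSJ3 beside PSMC5 (262 bases, 39.0 to 53.4 FPKM). Overlap of exons was not counted. Where exons do overlap, unspliced reads of the 2 genes cannot be told apart without a stated strand setting.

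Other lists of the ubiquitin and proteasome system differed in how far they resembled the members. Among 18 tested genes for other subunits, inhibitors and assembly factors, all 18 were above 0, with a median log2 fold change of 0.23. The groups separated upward in 6 and downward in 0, and untreated replicate 2 was the lowest library in 15. Over all genes, 55.1% were above 0, 16.2% separated upward, 10.7% separated downward and 40.8% were lowest in untreated replicate 2. These shares stand beside every count in this paragraph. In lists this small, a count near them is not read as a result. PSMG4, an assembly chaperone of the core, stood at 42.1 and 33.9 FPKM in untreated cells and 61.6 and 48.3 FPKM after formaldehyde, and PSMG1, another, at 104 and 81.7 against 122 and 120 FPKM. Both separated the groups, and neither passed (limma adjusted p = 0.9999 for each). Ubiquitin and its activating enzymes had a median of 0.12 over 6 genes with 0 separated, and factors that deliver substrates a median of 0.06 over 13, 8 above 0 and 5 below, with 1 separated in each direction and untreated replicate 2 lowest in 8. Among 8 genes of peptide transport and trimming with their regulators, 3 separated upward and 3 downward, with a median of 0.04, and untreated replicate 2 was lowest in 1. IRF1, known to act on the inducible subunits and named after its values were seen, overlapped at 14.8 and 11.9 FPKM in untreated cells and 11.8 and 15.3 FPKM after formaldehyde. In these 5 lists 0 genes passed in limma over all genes tested. At an unadjusted p under 0.05 the count was 1 among the genes of NRF1 and its processing (MAFF), and 0 each among the other subunits and assembly factors, the ubiquitin genes and the delivery factors.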

How the data were processed

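RNA-seq of 4 BEAS-2B libraries was analysed from the deposited Cufflinks files, 1 for each library, matched by file name to the sample title. The submitters' processing notes name Cufflinks 2.0.2, STAR 2.5.2, FastQC 0.10.0 and the builds GRCh37 and hg19. For trimming, multi-mapped reads and strand the sources used here give nothing. The authors deposited FPKM for each of 40255 transcripts. The 894 without a gene name (1.07% to 1.31% of FPKM) were left out, and the rest summed by gene name. Depth was recovered from the deposited upper bound, taken as FPKM times 1 plus 2 over the square root of the fragments, regressed on length over genes with 1 transcript. It covers counting error only. Genes with a mean of at least 1 FPKM entered limma 3.58.1 (R 4.3.3) as log2(FPKM + 1), 1 being the pseudocount (eBayes with a trend, no covariate, two-sided, Benjamini-Hochberg over 12407 genes, threshold 0.05), a scale that understates changes of low genes. The test was checked on simulated data. Separated means that the groups do not overlap. GC content came from GENCODE 29 transcripts matched by RefSeq identifier, a check added after the data were seen. Promoters came from RefSeq (GRCh38.p14), and no coordinates were converted. Members and lists were chosen with earlier results of these data known, and no list was tested. Genes with values in every library were PSME1, PSME2, PSMB10 and, in each part, the 3 with the largest absolute moderated t, the most and the least abundant, and up to 3 of each other list by the same t. Others are said to be chosen later or illustrate a promoter. Some listed genes are not reported here. Figures used matplotlib 3.10.9 and Python 3.11.15.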

Additional observations from a re-analysis of the deposited data

How the results depend on the processing

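Of 518 values of single members under 14 alternatives, 473 kept their direction and stayed short of the threshold and 45 turned, 32 of them with a library left out. No member passed limma under any of the 14. With 1 library left out, its group has 1 library, assumed to vary like the other group. The median log2 fold change then ran from -0.090 to 0.52 over all members, -0.25 to 0.58 in the alpha ring, -0.090 to 0.42 in the beta ring, 0.021 to 0.51 in the lid and 0.10 to 0.61 over the activators. The 21 members that turned gave log2 fold changes of -0.10 to 0.91 for PSMA1, -0.70 to 0.85 for PSMA2, -0.45 to 0.48 for PSMA3, -0.25 to 0.34 for PSMA4, -0.29 to 0.77 for PSMA5, -0.17 to 0.58 for PSMA6, -0.16 to 0.55 for PSMA7, -0.23 to 0.30 for PSMB1, -0.17 to 0.39 for PSMB3, -0.18 to 0.42 for PSMB4, -0.090 to 0.79 for PSMB5 and -0.26 to 0.41 for PSMB10. It ran from -0.076 to 0.51 for PSMC1, -0.11 to 0.31 for PSMC2, -0.23 to 0.55 for PSMC6, -0.33 to 0.38 for PSMD1, -0.14 to 0.67 for PSMD5, -0.15 to 0.50 for PSMD6, -0.046 to 0.22 for PSMD7, -0.37 to 0.84 for PSMD14 and -0.14 to 0.52 for PSME4. The other 16 turned under no alternative. The groups lay apart upward in 7 members as reported and in 4 with quantile normalization, beside 16.2% and 13.8% of all genes. With a library left out both members and all genes overlap less often. Without untreated replicate 1 the count upward was 37, beside 47.0% of all genes. Without untreated replicate 2 it was 7 upward and 10 downward, beside 29.7% and 34.7%. It was 11 upward without formaldehyde replicate 1, beside 31.2%, and 23 without formaldehyde replicate 2, beside 32.9%. Quantile normalization gave -0.073 for PSMA3, -0.042 for PSMA4, -0.043 for PSMB1, -0.0021 for PSMB4 and -0.059 for PSMD1. Scaling to the FPKM sum gave -0.050 for PSMA3, -0.020 for PSMA4, -0.029 for PSMB1 and -0.043 for PSMD1, and median ratios gave -0.016 for PSMA3 and -0.0094 for PSMD1. The most abundant transcript alone gave -0.022 for PSMA3 and -0.33 for PSMA4. The cause of these turns was not tested.

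The replicate numbers share no stated culture or day, and there are 2 pairs, so they were not taken as pairs. Deviations of same-numbered libraries went together over genes, with a Pearson's r of 0.25 (Spearman 0.52) over all genes tested. Over genes of at least 300 nt it was 0.50 (0.56), and over the 37 members 0.82 (0.79). With a replicate block limma called 29 genes in place of 19 and 0 members, with PSME2 at 0.60 ± 0.23 (unadjusted p = 0.0499, adjusted p = 0.675). With only genes of at least 300 nt, PSME2 had an unadjusted p of 0.0477 in limma (adjusted p = 0.9999). Its unadjusted p thus fell on either side of 0.05 with the processing. The counting error of single-transcript members was 11.04% or less, except PSMB7 in untreated replicate 1 (29.98%), while untreated libraries differed by a median of 1.501 times.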
